A study of Mus musculus with 10 samples.

Results

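The comparison of iB-Tregs (B) with iB-Tregs (A) asked what IL-33 and serotonin add when splenic Tregs are co-cultured with astrocytes. It was chosen by sample, as the 2 libraries labelled B-Treg1 and B-Treg2 and the 2 labelled A-Treg1 and A-Treg2, which are 4 of the 10 RNA-seq libraries in the series. The Tregs carried a Foxp3-hCD2 knock-in, which puts human CD2 on the surface of cells that express Foxp3, and the labels give the strain as C57BL/6J. iB-Tregs (B) were co-cultured for 6 days with primary glial cells, mostly astrocytes, with anti-CD3 and anti-CD28 (each at 2 μg/mL), IL-2 at 20 ng/mL, IL-33 at 20 ng/mL and serotonin at 10 μM. iB-Tregs (A) had the same cells, antibodies, IL-2 and time with neither IL-33 nor serotonin. iB-Tregs (C), whose 2 libraries are given beside the others and share in the estimate of the spread, had everything in (B) and also the chemokines CCL1 and CCL20 at 20 ng/mL each. Both agents were added together, so their effects cannot be told apart, and the agents reached the glial layer as well as the Tregs. Before RNA was extracted, hCD2+ cells were selected with magnetic beads. The libraries from spleen and brain were not used here.

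IL-33 is an alarmin of barrier and glial cells that signals through ST2, encoded by Il1rl1, together with the accessory protein IL1RAP, and from there through MYD88, IRAK kinases and TRAF6 to NF-kB. ST2 marks Tregs of adipose tissue, muscle and brain, type 2 helper cells and group 2 innate lymphoid cells. Serotonin acts through a family of receptors that are coupled to G proteins, with a single ion channel type among them. Some of these receptors raise cAMP and others lower it.

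The 6 libraries held 15628261 to 16388161 counts over 55401 gene IDs. Levels are in CPM, the usual unit of counts relative to library size, scaled by TMM. After a filter on low counts 14713 genes entered the quasi-likelihood test of edgeR, and a gene is said to be called, or to have risen or fallen, at a Benjamini-Hochberg adjusted p under 0.05. Log2 fold changes, or log2 changes, are (B) over (A), and ± gives their standard error. Whether separate cultures gave the 2 libraries of each group is not stated, so a p-value here reflects library-to-library spread that may be only technical.

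The cells carried the RNA of Tregs, and all libraries also carried RNA of macrophages or microglia. Foxp3 was at 274 and 269 CPM in iB-Tregs (B) and 269 and 275 CPM in (C), against 331 and 328 CPM in (A), and Cd4 was at 395 and 388 CPM in (B) and 447 and 441 CPM in (C), against 365 and 358 CPM in (A). The summed level of 14 pan T cell markers was 3772 and 3738 CPM in (B) and 3929 and 4106 CPM in (C), against 4142 and 3986 CPM in (A). The 20 markers of microglia and macrophages summed to 12200.2 and 12236 CPM in (B) and 10813 and 11491 CPM in (C), against 6630.4 and 6349 CPM in (A). Of them, 17 were called higher (85%) and 1 lower (5%), against 15.6% and 14.5% of all genes tested. Lyz2, the lysozyme of macrophages, was at 5089 and 5035 CPM in (B), against 3371 and 3198 CPM in (A). Of 15 astrocyte markers tested, 5 were called higher (33.3%), among them Apoe, which macrophages also express, at 8027 and 8002 CPM in (B) against 4514 and 3926 CPM in (A). The defining astrocyte genes Gfap and Aqp4 stayed at or under 3.86 CPM in all 6 libraries, although astrocytes were the main cells of the feeder layer. Cd8a did not exceed 1.60 CPM, and 7 of 10 mast cell and basophil markers, Cpa3, Mcpt4 and Fcer1a among them, had no count. Of the 2 that were tested, Hdc was higher, at 0.940 and 1.08 CPM in (B) against 0.416 and 0.247 CPM in (A) (log2 fold change 1.58), and Kit lower (-0.50). Hdc was not called when any 1 library of (B) or (A) was left out (1.26 to 2.00), nor Kit without (A) library 2 (-0.41) or (B) library 2 (-0.42). Of 10 markers of group 2 innate lymphoid cells, 9 were higher (90%) and 1 lower (10%), with a median of 3.16 and a sum of 2660.0 and 2652 CPM in (B), against 1063 and 1039 CPM in (A). Most of the gap between these sums is that of Arg1, at 1325 and 1316 CPM in (B) against 34.4 and 30.2 CPM in (A). Tregs or macrophages can express several of these markers, such as Il1rl1, Gata3, Klrg1, Areg and Arg1. In such bulk libraries, fewer cells of a type and less RNA per cell cannot be told apart. Which cells a transcript came from was not measured.

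**Figure D1:**
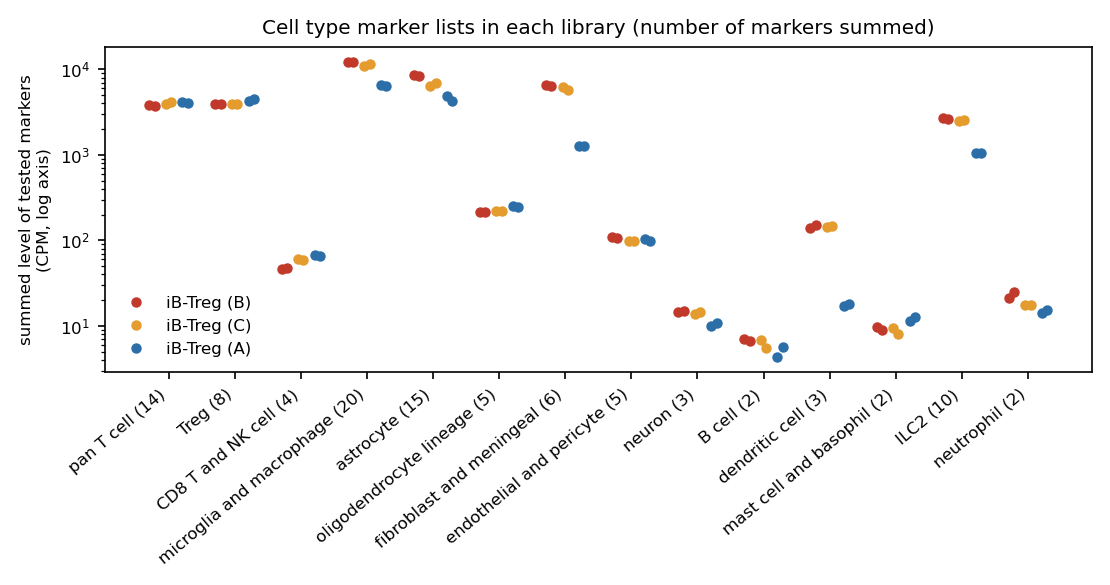
Summed level of the tested markers of 14 cell types in each library, in CPM on a log axis, for iB-Tregs (B), (C) and (A), with 1 dot per library and the number of markers summed in brackets. The microglia and macrophage sum is 12200.2 and 12236 CPM in (B) against 6630.4 and 6349 CPM in (A), while the pan T cell sums of (B) and (A) lie within 3738 to 4142 CPM.

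Addition of IL-33 and serotonin changed many genes, and the large changes were mostly rises. In iB-Tregs (B), 2296 genes were called higher, 15.6% of those tested, and 2139 were called lower, 14.5%. The counts of gene lists below carry their shares of the members tested, to be read beside these 15.6% and 14.5%. Rises of over 2-fold were called for 620 genes, 4.21% of those tested, against 126 falls of over 2-fold, 0.856%. Above 8-fold, 80 genes rose and 8 fell. The median log2 fold change was 0.54 among the genes called higher and -0.32 among those called lower, and it was -0.004 over all genes tested. When counts were scaled to the pan T cell markers, the calls split into 3491 higher and 972 lower, and with no scaling beyond total counts into 1862 higher and 3177 lower. Small changes near 0 thus depend on the scaling, which moved the median over all genes to 0.110 and to -0.067.

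**Figure D2:**
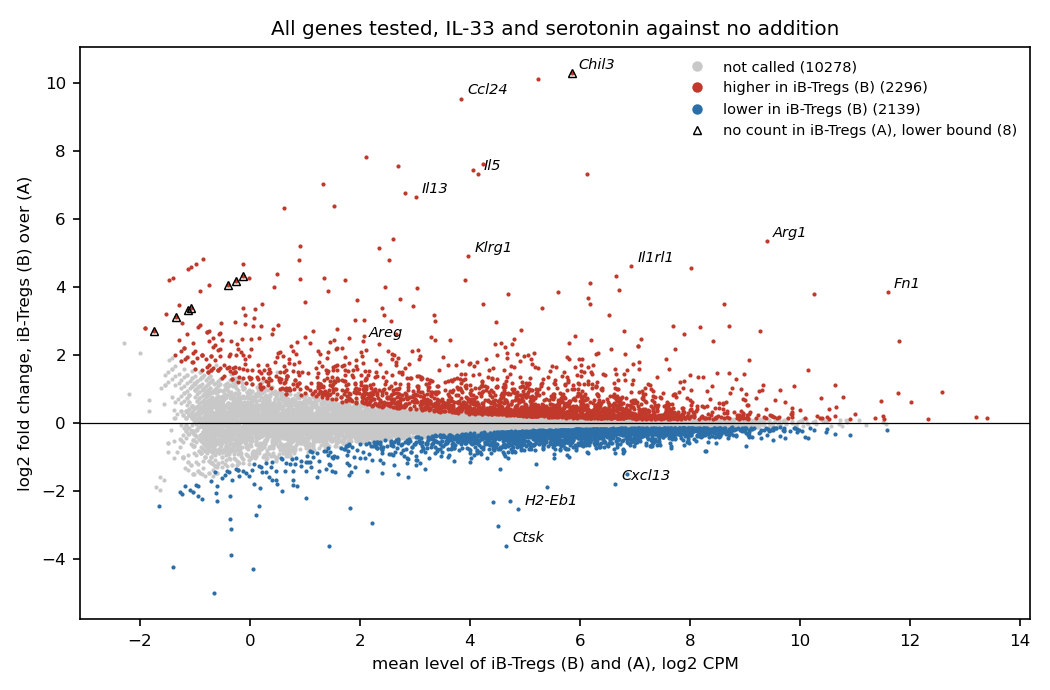
Log2 fold change of each tested gene between iB-Tregs (B) and (A), against the mean level of the groups in log2 CPM, with called genes in colour. Genes with no count in (A) are drawn as triangles at a lower bound. The rises reach further than the falls, with Chil3, Ccl24, Il5 and Il13 named among the rises and Ctsk and H2-Eb1 among the falls.

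Among protein-coding genes with at least 10 CPM in the higher group, the 15 largest rises were Chil3, Rnase2a, Ccl24, Mgl2, Csn1s1, Csn2, Timp1, Il5, Ky, Il13, Olr1, Arg1, Klrg1, Tarm1 and Il1rl1. They take in type 2 cytokines and surface receptors that Tregs can express, caseins, and genes that alternatively activated macrophages are known for. The 15 largest falls by the same limit were Ctsk, Fscn1, H2-Eb1, Htra1, H2-Aa, H2-Ab1, Cxcl13, Arhgef10l, Cx3cr1, Hist1h2ao, Fbln2, S100a4, Ltf, Ltbp2 and Gdnf. Hist1h2ao is 1 of many near-identical histone genes, so its value is uncertain. The promoters below belong to genes of the first list and to Areg, and each is shown because its letters hold a motif of a factor known from T cells or from cAMP signalling.

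The windows were taken from RefSeq on GRCm38.p6 and give the 250 bases before the start of the gene, 5′ to 3′ on its own strand. Capitals mark AGATAA, the letters of a GATA site, TTCNNNGAA, those of a STAT site, TGANTCA, those of an AP-1 site, and TGACGTCA, the cAMP response element (CRE), each searched on both strands over windows that run on to 50 bases after the start. None of these motifs contains another. The Il1rl1 gene has 2 starts, and its upstream window lies at chr1:40429320-40429569 on the plus strand and its downstream one at chr1:40439379-40439628. Il13 lies at chr11:53634703-53634952 (minus strand), Csn1s1 at chr5:87665958-87666207 (plus), Csn2 at chr5:87699426-87699675 (minus) and Areg at chr5:91139349-91139598 (plus).
Il1rl1, upstream start: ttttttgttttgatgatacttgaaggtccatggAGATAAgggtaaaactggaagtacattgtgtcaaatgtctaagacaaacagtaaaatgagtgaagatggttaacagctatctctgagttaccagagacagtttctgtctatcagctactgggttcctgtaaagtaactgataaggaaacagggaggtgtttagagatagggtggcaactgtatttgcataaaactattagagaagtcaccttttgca
Il1rl1, downstream start: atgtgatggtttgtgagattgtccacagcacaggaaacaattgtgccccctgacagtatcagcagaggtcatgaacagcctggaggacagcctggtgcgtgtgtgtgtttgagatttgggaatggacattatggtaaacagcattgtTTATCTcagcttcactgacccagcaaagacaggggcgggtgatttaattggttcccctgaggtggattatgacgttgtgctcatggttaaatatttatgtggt
Il13: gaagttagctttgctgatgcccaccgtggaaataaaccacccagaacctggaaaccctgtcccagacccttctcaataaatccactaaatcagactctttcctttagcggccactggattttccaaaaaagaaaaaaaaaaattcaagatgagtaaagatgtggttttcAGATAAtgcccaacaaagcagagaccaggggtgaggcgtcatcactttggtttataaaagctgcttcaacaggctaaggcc
Csn1s1: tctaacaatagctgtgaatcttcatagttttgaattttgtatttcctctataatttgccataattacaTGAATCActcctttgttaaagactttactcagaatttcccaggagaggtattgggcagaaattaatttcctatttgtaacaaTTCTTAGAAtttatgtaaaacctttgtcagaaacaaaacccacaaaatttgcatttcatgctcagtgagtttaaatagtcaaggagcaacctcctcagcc
Csn2: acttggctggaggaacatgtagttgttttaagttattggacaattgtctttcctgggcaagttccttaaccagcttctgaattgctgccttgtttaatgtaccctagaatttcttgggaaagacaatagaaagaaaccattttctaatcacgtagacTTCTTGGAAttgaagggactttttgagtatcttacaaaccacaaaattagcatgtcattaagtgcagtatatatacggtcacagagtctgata
Areg: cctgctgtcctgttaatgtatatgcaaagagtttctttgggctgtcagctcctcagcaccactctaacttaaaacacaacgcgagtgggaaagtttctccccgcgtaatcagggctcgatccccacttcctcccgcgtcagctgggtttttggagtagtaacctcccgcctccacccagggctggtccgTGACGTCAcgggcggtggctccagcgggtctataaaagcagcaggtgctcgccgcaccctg

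The GATA letters begin 217 bases before the upstream start and 103 bases before the downstream start of Il1rl1, where they are read on the other strand, and 81 bases before the start of Il13. The STAT letters of the caseins begin 100 bases (Csn1s1) and 93 bases (Csn2) before the RefSeq start, the AP-1 letters of Csn1s1 182 bases before it, and the CRE of Areg 61 bases before it. Among the 15 largest rises, 12 matched the RefSeq table with 13 windows, and 5 of these windows (38.5%) held the GATA letters, against 6.56% of the 12583 windows of tested protein-coding genes and 11.2% of all 32851 windows. STAT letters were in 3 of the 13 windows (23.1%), against 6.92% and 8.30%, AP-1 letters in 2 (15.4%), against 5.13% and 7.81%, and the CRE in 0, against 2.96% and 1.79%. Among the falls, 13 genes matched with 15 windows, and 3 of them held GATA, 2 AP-1, 2 CRE and 0 STAT letters. These shares rest on few windows and describe letters only.

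The IL-33 receptor rose more than any other gene of its pathway. Il1rl1 (ENSMUSG00000026069, chromosome 1 from 40429570 to 40465415 of GRCm38) was at 232 and 240 CPM in iB-Tregs (B) and 244 and 236 CPM in (C), against 8.86 and 10.2 CPM in (A). All 4 libraries that had IL-33 and serotonin lay far above both that had neither. The log2 change was 4.63 ± 0.07 (adjusted p = 3.4e-22), a 24.7-fold difference. Il1rap, the shared accessory chain, was at 17.4 and 15.4 CPM in (B) and 16.6 and 14.2 CPM in (C), against 10.5 and 11 CPM in (A), a log2 change of 0.62 ± 0.12 (adjusted p = 0.00046). The groups did not overlap, but the change was much smaller than that of Il1rl1.

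Of 16 genes of the IL-33 receptor and its proximal signalling, 5 rose (31.2%) and 3 fell (18.8%), with a median of 0.06, against 15.6% and 14.5% of all genes tested, so the share of falls was near that of all genes. Il18rap, the accessory chain of the IL-18 receptor and a neighbour of Il1rl1 on chromosome 1, had a log2 fold change of 1.30 (57.9 and 56.0 CPM in (B), against 23.9 and 22.2 CPM in (A)). Il18r1, which lies between the pair of them, was at 27.4 and 24.8 CPM in (B), against 25 and 23.8 CPM in (A), and was not called. Irak3, an inhibitory member of the IRAK family (0.73), and Irak2 (0.19) rose too. Traf6 (-0.25), Tab1 (-0.25) and Map3k7, the kinase TAK1 (-0.20), fell, and these 3 falls were not called with the pan T cell scaling. Myd88 was at 61.2 and 65.0 CPM in (B), against 67.5 and 67.1 CPM in (A), and was not called. Il33 itself stayed under 1 CPM in all 6 libraries. Among 18 subunits and feedback genes of NF-kB, 6 rose (33.3%) and 1 fell (5.56%), with a median of 0.09. The largest rises were those of Zc3h12a, the RNase Regnase-1 (0.57), and Tnfaip3, the inhibitor A20 (0.31), and Tnip3 (-0.46) was the gene that fell, which was not called with the pan T cell scaling (-0.35). Some of the smaller changes were not called once a library was left out, namely Irak2 (0.18 without (A) library 1, 0.20 without (B) library 1 and 0.18 without (B) library 2), Map3k7 (-0.19 and -0.20 without the first and the second (B) library), Tab1 (-0.24 without (A) library 1 and -0.19 without (B) library 2) and Tnip3 (-0.35 without (A) library 2 and -0.42 without (B) library 1).

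Serotonin receptors were close to or below the limit of detection. Of 23 genes for serotonin receptors and handling, 6 passed the filter. Htr2b, a receptor coupled to Gq, was at 2.57 and 2.85 CPM in iB-Tregs (B) and 2.39 and 2.68 CPM in (C), against 1.13 and 0.863 CPM in (A), a log2 change of 1.43 ± 0.32 (adjusted p = 0.0013). It overlaps Psmd1 on the other strand, and the strand setting of the counting is not stated. Htr1b, a receptor that lowers cAMP, was at 0.690 and 1.33 CPM in (B) and 1.07 and 1.83 CPM in (C), against 0.238 and 0.432 CPM in (A), with a log2 change of 1.58 ± 0.56 (adjusted p = 0.039). These levels rest on 86 and 33 counts for Htr2b and on 32 and 11 counts for Htr1b in (B) and (A). Htr1b was not called without (A) library 1 (1.21) or without (B) library 2 (1.04), nor by DESeq2 (adjusted p = 0.12).

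Htr7, a receptor that raises cAMP and that the study names as a brain Treg gene, had 1 and 0 counts in (B) and 0 and 1 in (C), against 0 and 0 in (A), so no difference was detectable at this depth. The paper reports raised Htr7 in (B) and (C) by qPCR, which is a different measure. Its RNA-seq heat map also shows Htr7 higher than in spleen Tregs, which were not used here. Htr2a had 2 and 2 counts in (B) and in (C), against 1 and 0 in (A). Htr1a, Htr1f, Htr2c, Htr3a, Htr4, Htr5a, Htr5b and Htr6 had no count in any of the 6 libraries, Htr1d had 0 and 2 counts in (B) and Htr3b 2 and 0, and both had none in (C) and (A). The serotonin transporter Slc6a4 had 3 and 0 counts in (B) and none in (C) and (A). Tgm2, a transglutaminase that can couple serotonin to proteins and that macrophages express, was at 846 and 842 CPM in (B) and 814 and 821 CPM in (C), against 231 and 233 CPM in (A), a log2 change of 1.86 ± 0.04 (adjusted p = 5.4e-19). Tph1, the enzyme that starts serotonin synthesis outside the brain, fell, with 30.7 and 28.8 CPM in (B) and 15.7 and 17.9 CPM in (C), against 50.6 and 50.6 CPM in (A) (log2 fold change -0.77).

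Genes that answer to cAMP mostly rose. Of 19 tested, 13 rose (68.4%) and 2 fell (10.5%), with a median of 0.30. Areg, which encodes the growth factor amphiregulin of repair Tregs, was at 7.27 and 6.71 CPM in iB-Tregs (B) and 7.94 and 9.01 CPM in (C), against 1.13 and 1.48 CPM in (A), a log2 change of 2.42 ± 0.23 (adjusted p = 2.3e-08). Of 5 phosphodiesterases, which break cAMP down, 4 rose, with log2 fold changes of 1.67 for Pde3b, 1.34 for Pde7b, 1.09 for Pde4b and 0.29 for Pde4d, and Pde4a (0.07) was not called. Crem, whose short forms repress cAMP targets, was at 158 and 161 CPM in (B), against 102 and 106 CPM in (A) (0.62), and Fosl2, an AP-1 subunit, at 411 and 422 CPM in (B), against 217 and 218 CPM in (A) (0.94). Nr4a3 (-0.52) and Ptger4, a receptor of prostaglandin E2 (-0.44), fell. Several of these genes also answer to the T cell receptor and are expressed by macrophages.

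Among early response genes of AP-1 and related families, 10 of 20 rose (50%) and 5 fell (25%). Ier3 had a log2 fold change of 2.32, with 46.1 and 45.0 CPM in (B) against 10.7 and 7.46 CPM in (A). Egr2 followed with 2.06, at 135 and 124 CPM in (B) against 31.0 and 31.1 CPM in (A). Jund (-0.34), Egr3 (-0.32), Myc (-0.27), Jun (-0.24) and Ier2 (-0.14) fell. With the pan T cell scaling 2 of the list were lower in place of 5, and Myc (-0.16), Jun (-0.13) and Ier2 (-0.02) were not called. Ier2 was not called without (A) library 1 (-0.08) or without either (B) library (-0.14 and -0.13).

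Il5 and Il13, almost silent in iB-Tregs (A), had clear levels in iB-Tregs (B). In the same libraries 9 of 10 markers of group 2 innate lymphoid cells were higher, with a median of 3.16, and their part in these results was not tested. Il5, the eosinophil growth factor (ENSMUSG00000036117, chromosome 11 from 53720794 to 53725106), was at 36.0 and 34.1 CPM in (B) and 36.5 and 38.1 CPM in (C), against 0.357 and 0.0617 CPM in (A). Its log2 change was 7.32 ± 0.22 (adjusted p = 4.5e-17), from 1114 counts over the (B) libraries and 7 over the (A) libraries. Il13, which acts on epithelium and macrophages through IL-4Rα, was at 16.2 and 15.8 CPM in (B) and 13.7 and 16 CPM in (C), against 0.238 and 0.0617 CPM in (A), a log2 change of 6.66 ± 0.29 (adjusted p = 4.0e-14). In both genes the lowest library with IL-33 and serotonin was far above the highest without them.

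Il4, the third type 2 cytokine of this cluster, stayed low in all groups. It was at 2.88 and 2.72 CPM in (B) and 2.90 and 3.20 CPM in (C), against 0.713 and 0.555 CPM in (A), with a log2 change of 2.13 ± 0.34 (adjusted p = 4.1e-05). The cluster lies on chromosome 11 between 53567379 and 53725106, in the order Kif3a, Il4, Il13, Rad50, Il5. Kif3a, a kinesin subunit, was at 26.0 and 27.2 CPM in (B), against 12.3 and 12.4 CPM in (A), a 2.15-fold difference (adjusted p = 1.1e-08). Rad50, a DNA repair gene between Il13 and Il5, was at 62.3 and 69.1 CPM in (B), against 65.0 and 71.7 CPM in (A), and its groups overlapped.

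Of all 17 cytokine genes tested, 10 rose (58.8%) and 2 fell (11.8%), with a median of 0.41. Il10, the inhibitory cytokine of Tregs, was at 11 and 9.05 CPM in (B) and 10.7 and 12.7 CPM in (C), against 3.92 and 3.08 CPM in (A), a log2 change of 1.51 ± 0.18 (adjusted p = 7.7e-07). Csf2, which encodes GM-CSF, was at 3.51 and 1.84 CPM in (B), against 0.654 and 0.925 CPM in (A) (1.75), and was not called without (B) library 1 (1.21). Il24 had 31 counts over the (B) libraries and 1 over the (A) libraries. Ebi3, a subunit of IL-27 and IL-35, rose by 0.88, Osm by 0.41 and Csf1 by 0.30 on the log2 scale. Ltb, a lymphotoxin subunit (-0.37), and Tnfsf11, the gene of RANKL (-0.18, and -0.06 and not called with the pan T cell scaling), fell. Ifng did not exceed 0.802 CPM in any library and was not called, and neither were Tnf and Tgfb1. Csf1 was not called without (A) library 1 (0.19) or (B) library 1 (0.23), nor Tnfsf11 without (A) library 2 (-0.10) or either (B) library (-0.20 and -0.15). Il17a, Il22, Il3 and Il31 had at most 3 counts over the (B) and (A) libraries together.

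**Figure D3:**
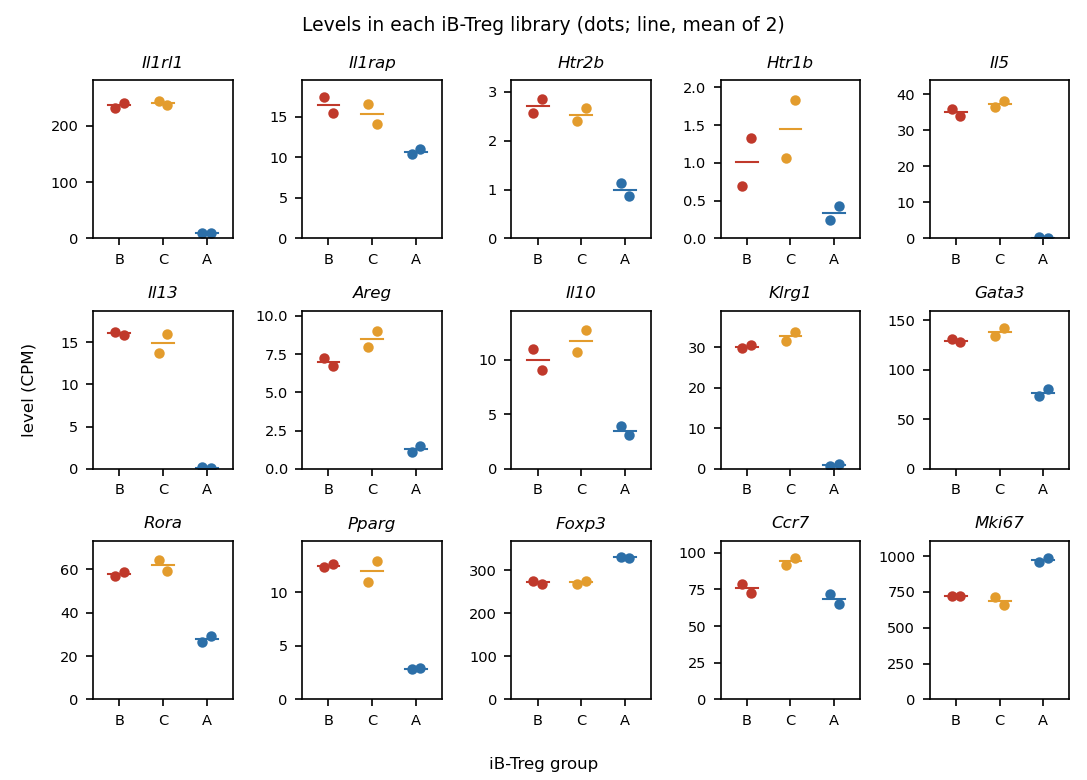
Levels of 15 genes in each library, in CPM from 0, with 1 dot per library and a line at the mean of 2, in the order iB-Tregs (B), (C) and (A). Il1rl1, Il5, Il13, Areg and Klrg1 are high in (B) and (C) and low in (A), whereas Foxp3 and Mki67 are higher in (A).

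Of 22 genes tested that the study names as Treg or brain Treg genes, 12 rose (54.5%) and 6 fell (27.3%), with a median of 0.44. The study picked these genes, so their directions are not independent evidence. Beside these and the Treg gene groups that follow, 17 of 20 microglia and macrophage markers rose (85%) and 5 of 14 pan T cell markers fell (35.7%), with medians of 0.97 and -0.10, and their part in the results was not tested. Klrg1, a receptor of terminally differentiated tissue Tregs (ENSMUSG00000030114, chromosome 6 from 122270596 to 122282882), was at 29.8 and 30.5 CPM in iB-Tregs (B) and 31.6 and 33.9 CPM in (C), against 0.832 and 1.17 CPM in (A). Its log2 change was 4.91 ± 0.16 (adjusted p = 2.2e-16). Ednrb, the type B endothelin receptor, was at 17.7 and 15.8 CPM in (B) and 19.8 and 16.4 CPM in (C), against 2.38 and 3.39 CPM in (A) (2.54). Penk, which encodes preproenkephalin, was at 10.6 and 9.94 CPM in (B) and 15.4 and 16.1 CPM in (C), against 4.70 and 5.98 CPM in (A) (0.94). The groups did not overlap in either gene. Spp1, the gene of osteopontin, was at 1062 and 1084 CPM in (B), against 161 and 167 CPM in (A) (2.71), and is also a macrophage gene that overlaps Gm42793. Ctla4, Tigit, Ccr4 and Bcl2 were not called, with log2 fold changes of -0.10, -0.06, -0.00 and -0.05.

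Transcription factors of tissue Tregs rose more often than they fell. Of 20 tested, 11 rose (55%) and 4 fell (20%), with a median of 0.37. Gata3 (ENSMUSG00000015619), which binds the GATA letters and drives type 2 cytokine genes in helper T cells, was at 131 and 128 CPM in (B) and 134 and 142 CPM in (C), against 73.4 and 80.5 CPM in (A), a log2 change of 0.75 ± 0.06 (adjusted p = 9.4e-10). Pparg, the nuclear receptor of adipose tissue Tregs, was at 12.3 and 12.6 CPM in (B) and 11 and 12.9 CPM in (C), against 2.85 and 2.90 CPM in (A), a log2 change of 2.11 ± 0.17 (adjusted p = 1.1e-09). Rora, an orphan nuclear receptor, was at 57.0 and 58.7 CPM in (B), against 26.7 and 29.0 CPM in (A) (1.05). In each of these genes (B) and (C) lay above both (A) libraries.

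Prdm1, the gene of BLIMP-1 in effector Tregs (1.20), Maf (1.15), Ahr, the aryl hydrocarbon receptor (1.02), Batf, which Tregs of tissues need (0.69), Id2 (0.65), Hif1a (0.38), Klf4 (0.35) and Nfil3 (0.14) rose as well. Of these, Maf, Prdm1, Pparg and Ahr are also expressed by macrophages, whose markers rose in (B). Irf4, a factor of effector Tregs, fell, with 150 and 146 CPM in (B) against 195 and 202 CPM in (A) (-0.42), as did Id3 (-0.58), Bach2 (-0.25) and Ikzf3 (-0.14). Bach2 (-0.14) and Ikzf3 (-0.03) were not called with the pan T cell scaling. Bhlhe40, Rbpj, Ikzf2 and Tbx21 were not called. With 1 library left out Klf4 (0.29 to 0.31), Nfil3 (0.13 to 0.15) and Ikzf3 (-0.11 to -0.17) lost their calls, Klf4 without (A) or (B) library 2, Nfil3 without any 1 of the 4 and Ikzf3 without any but (A) library 1.

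Genes of Treg identity were mostly a little lower. Of 20 tested, 11 fell (55%) and 4 rose (20%), with a median of -0.13. Foxp3 (ENSMUSG00000039521, chromosome X from 7573644 to 7595245) had a log2 change of -0.28 ± 0.04 (adjusted p = 4.0e-05). Its 2 libraries of (B) and 2 of (C) lay below both of (A). Il2ra, the IL-2 receptor chain CD25, was at 1357 and 1336 CPM in (B), against 1472 and 1577 CPM in (A) (-0.18). Larger falls were those of Gpr83 (-0.76), with 35.4 and 33.7 CPM in (B) against 58.3 and 59.1 CPM in (A), and of Nrp1, a marker of thymic Tregs (-0.51). Cd83 (1.42) and Tnfrsf9, the costimulatory receptor 4-1BB (0.96), rose. With the pan T cell scaling 4 of the genes were lower and 5 higher, and Foxp3 had a log2 fold change of -0.17. Il2ra was not called with that scaling (-0.07) or without (B) library 2 (-0.16). Foxp3 overlaps Ccdc22 and Flicr.

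Receptors that inhibit or costimulate T cells rose in 12 of 26 cases (46.2%) and fell in 3 (11.5%), with a median of 0.26. Tnfrsf8, which encodes CD30, was at 94.0 and 87.1 CPM in iB-Tregs (B) and 105 and 106 CPM in (C), against 6.60 and 5.86 CPM in (A), a log2 change of 3.86 ± 0.09 (adjusted p = 2.4e-19). Icos was at 318 and 317 CPM in (B) and 334 and 338 CPM in (C), against 136 and 136 CPM in (A) (1.22). Gzmb, the gene of granzyme B, was at 176 and 178 CPM in (B), against 73.9 and 71.8 CPM in (A) (1.28). In all 3 genes the groups were well apart. Gzma rested on 60 counts in (B) and 7 in (A). Cd200r1 (0.60), Cd44 (0.46), Pdcd1, the gene of PD-1 (0.33), and Tnfrsf1b, the type 2 TNF receptor (0.31), rose by less. Cd27, Tnfrsf18 and Tnfrsf4 fell, by -0.28, -0.20 and -0.13, and none of these 3 falls was called with the pan T cell scaling. Tnfrsf4 was not called without (A) library 1 (-0.09) or either (B) library (-0.13 and -0.12), nor Tnfrsf18 without (B) library 2 (-0.18).

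Genes of naive and recirculating T cells fell. Of 16 tested, 11 fell (68.8%) and 2 rose (12.5%), with a median of -0.33, and 7 were lower and 3 higher with the pan T cell scaling. S1pr1, which lets T cells leave lymphoid organs (-0.42), its regulator Klf2 (-0.56), Foxp1 (-0.45) and Myb (-0.83) were among those that fell. Il7r, the IL-7 receptor chain, rose instead, with 132 and 126 CPM in (B) against 76.0 and 71.8 CPM in (A) (0.81), and so did Satb1 (0.54). Ccr7, a lymph node homing receptor, was at 79.0 and 72.9 CPM in (B), against 71.6 and 65.0 CPM in (A), and was not called.

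Chemokine receptors rose in 8 of 15 cases (53.3%) and fell in 3 (20%), with a median of 0.46. Cxcr6, a receptor of tissue T cells, was at 36.5 and 35.8 CPM in (B) and 34.6 and 38.1 CPM in (C), against 10.1 and 7.71 CPM in (A) (log2 fold change 2.02). Ccr8, the receptor of CCL1 on tissue Tregs, was at 103 and 104 CPM in (B) and 115 and 114 CPM in (C), against 91.5 and 90.8 CPM in (A) (0.19, adjusted p = 0.010). Ccr6, the receptor of CCL20, was at 2.88 and 2.28 CPM in (B) and 2.52 and 2.09 CPM in (C), against 1.25 and 0.987 CPM in (A) (1.20). Ccr1 (1.61) rose, and is a macrophage receptor as well. Cxcr3, of type 1 T cells (-0.51), and Cxcr5, of follicular T cells (-0.82), fell. Ccr8 was not called without (B) library 1 (0.19) or 2 (0.18), nor Ccr6 without (B) library 1 (1.02). Cxcr6 overlaps Fyco1 on the other strand.

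Cell cycle genes were lower almost throughout. Of 30 cell cycle genes tested, 29 fell (96.7%) and none rose, with a median of -0.60 against -0.004 over all genes tested. Mki67, the gene of the Ki-67 antigen, was at 719 and 720 CPM in iB-Tregs (B) and 714 and 660 CPM in (C), against 960 and 988 CPM in (A), a log2 change of -0.44 ± 0.05 (adjusted p = 1.2e-07). Top2a, a topoisomerase of dividing cells, was at 404 and 404 CPM in (B) and 396 and 379 CPM in (C), against 616 and 654 CPM in (A) (-0.65). Mcm5, a subunit of the replicative helicase, was at 153 and 153 CPM in (B), against 257 and 243 CPM in (A) (-0.71). The groups of all 3 genes were apart. The largest fall was that of Ccne1, the gene of cyclin E1 (-0.81). Ccnd3 fell by less (-0.18), and Ccnd2 was the gene not called (0.04). With the pan T cell scaling 28 of the 30 were lower, with a median of -0.48. Microglia and macrophage markers rose in the same libraries, and which cells the falls came from was not tested. The paper counted cells after co-culture, a different measure, and reports marked proliferation in all its iB-Treg cultures. Among the combinations it tried with astrocytes, it names IL-2, IL-33 and serotonin as the best for proliferation.

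With TMM scaling, genes of glycolysis and of the ATF4 response fell more often than they rose, and most cholesterol genes were not called. Of 22 genes of glycolysis and the hypoxia response, 10 fell (45.5%) and 3 rose (13.6%), with a median of -0.17. Eno1 (-0.44), Ldha (-0.42), Tpi1 (-0.40) and Pkm (-0.33) fell, and Hk2 (0.30), Vegfa (0.25) and Slc2a3 (0.23) rose. Gapdh was at 13.5 CPM in both (B) libraries, a level that its many pseudogenes make uncertain. With the pan T cell scaling 5 of these genes were lower and 6 higher. Slc2a3 was not called without (A) library 1 (0.14) or either (B) library (0.21 and 0.25). Of 20 genes of the ATF4 and unfolded protein response, 12 fell (60%) and 3 rose (15%), with a median of -0.23. The enzymes of serine and one-carbon synthesis Phgdh (-0.81), Shmt2 (-0.58) and Psat1 (-0.56) were among them, as was Vldlr, a lipoprotein receptor (-0.68), with Phgdh at 227 and 227 CPM in (B) against 420 and 378 CPM in (A). Vldlr was not called without (B) library 2 (-0.66). Slc7a11, the cystine transporter, rose, with 99.0 and 101 CPM in (B) against 24.1 and 30.2 CPM in (A) (1.88). Of 23 genes of cholesterol synthesis and uptake, 18 were not called, 3 rose (13%) and 2 fell (8.7%), both shares under those of all genes.

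Of 17 genes that answer to STAT5, the factor of IL-2 signalling, 8 rose (47.1%) and 4 fell (23.5%), with a median of 0.14. Over all genes tested the shares were 15.6% and 14.5%. The caseins Csn2 and Csn1s1, milk proteins and textbook targets of STAT5 in the mammary gland, rose most. Csn2 was at 34.3 and 32.0 CPM in iB-Tregs (B) and 31.2 and 37.3 CPM in (C), against 0.178 and 0.185 CPM in (A), a log2 change of 7.45 ± 0.23 (adjusted p = 7.2e-17). Csn1s1, its neighbour on chromosome 5, was at 12.5 and 13.2 CPM in (B) and 13.7 and 12.7 CPM in (C), against 0.0594 and 0.0617 CPM in (A). With 2 counts over the (A) libraries, its ratio of (B) to (A) was 213 (95% Clopper-Pearson counting interval 58.5 to 1763). Cish (-0.14), Socs2 (-0.24), Pim1 (-0.13) and Il2ra (-0.18), feedback genes and targets of STAT5 in T cells, fell slightly. None of these 4 falls was called with the pan T cell scaling. Without a single library Cish (-0.11 without (A) library 1, -0.14 and -0.13 without either (B) library), Pim1 (-0.15 and -0.10 without either (B) library) and Il2ra (-0.16 without (B) library 2) were not called.

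More survival genes rose than fell. Of 20 genes of the Bcl2 family and apoptosis, 8 rose (40%) and 1 fell (5%), with a median of 0.13. Bcl2l1, the gene of BCL-XL, was at 65.6 and 62.3 CPM in (B) and 70.4 and 69.4 CPM in (C), against 26.5 and 31.5 CPM in (A), a log2 change of 1.14 ± 0.08 (adjusted p = 9.7e-11). Bcl2a1b (1.11), Bcl2a1a (1.08) and Bcl2a1d (0.92), near-identical copies that share reads, rose together. Mcl1 rose by 0.15 on the log2 scale, and Bcl2 was not called. Mcl1 was not called without either (B) library (0.14 and 0.17).

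**Figure D4:**
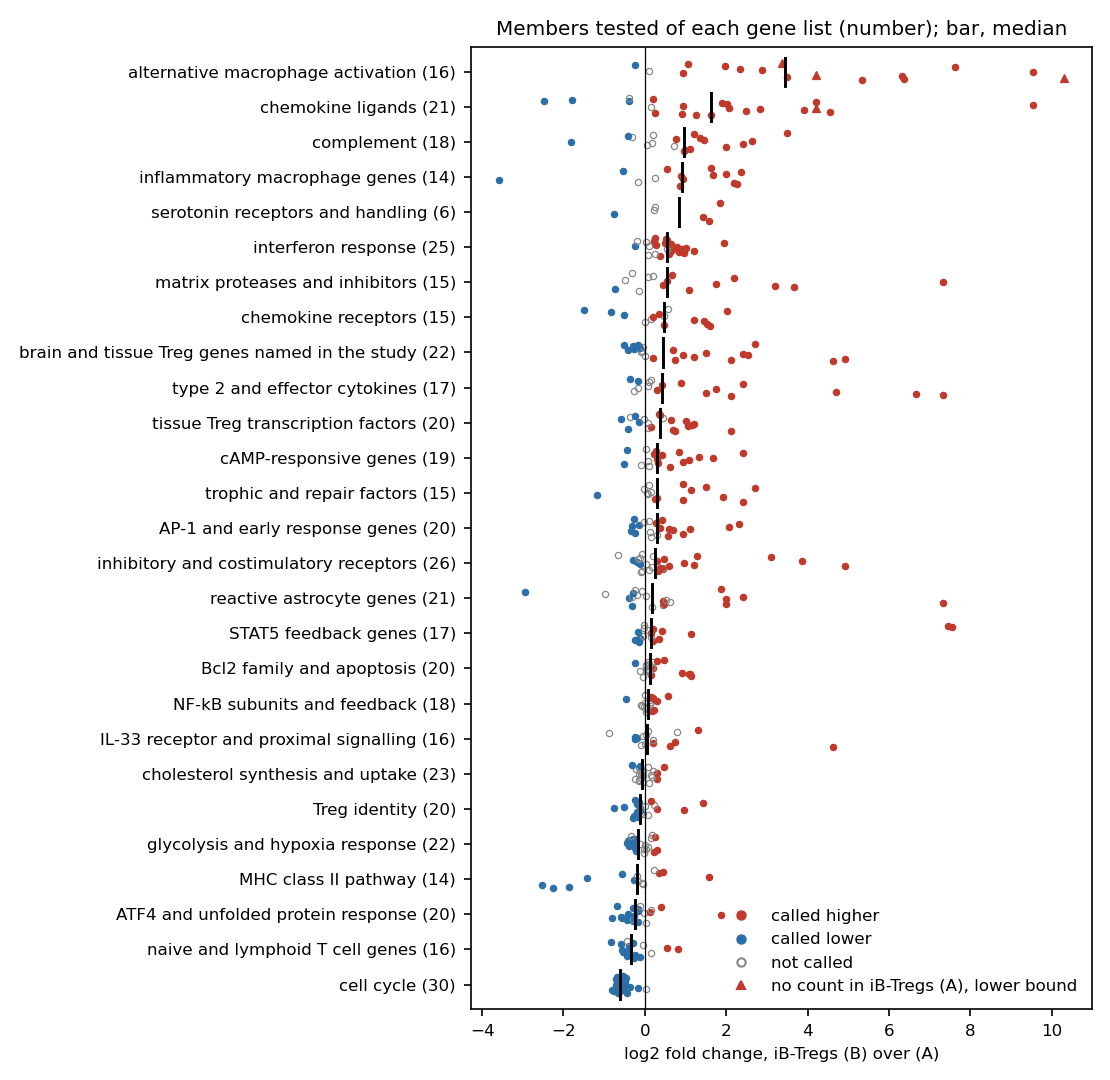
Log2 fold change between iB-Tregs (B) and (A) of every tested member of 27 gene lists, with the number tested in brackets and a bar at the median. Triangles are lower bounds for members with no count in (A), and the medians are taken with them at their bound. Cell cycle genes lie at the bottom, with 29 of 30 lower, and genes of alternative macrophage activation at the top, with 14 of 16 higher. Several of these 16 passed the filter only through (B) and (C).

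Several of the largest rises were those of genes known from alternatively activated macrophages. Of 16 tested, 14 rose (87.5%) and 1 fell (6.25%), with a median of 4.43, or of 3.44 with the members that had no count in (A) at their lower bound. Chil3, Ccl17 and Ear2 had no count in (A), and Ccl24, Cd163, Retnla, Mgl2 and Alox15 had 1 to 8 counts over its libraries. These members could pass the filter only through (B) and (C), so their rises were nearly fixed in advance. Beside this list, 17 of 20 microglia and macrophage markers rose, with a median of 0.97, and the part of that change in these results was not tested. Chil3, a chitinase-like protein also called Ym1 (ENSMUSG00000040809, chromosome 3 from 106147554 to 106167564), was at 117 and 116 CPM in iB-Tregs (B) and 171 and 172 CPM in (C), with no count in (A). That is at least 1280.4-fold higher, with a floor of 3 counts over the (A) libraries. Arg1, the gene of arginase 1, was at 1325 and 1316 CPM in (B) and 1143 and 1233 CPM in (C), against 34.4 and 30.2 CPM in (A), a log2 change of 5.35 ± 0.06 (adjusted p = 6.4e-24).

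Mrc1, the mannose receptor CD206, was at 719 and 724 CPM in (B) and 687 and 654 CPM in (C), against 62.0 and 65.3 CPM in (A) (3.50). Csf1r, the receptor that macrophages need to survive, was at 584 and 582 CPM in (B), against 282 and 291 CPM in (A) (1.03). Both genes were higher in (B) than in either (A) library. Mgl2, a C-type lectin with a close copy in Clec10a, was at 36.2 and 38.8 CPM in (B), against 0.0594 and 0.308 CPM in (A) (7.63). Ccl24, an eosinophil chemokine, had 905 counts over the (B) libraries and 1 over the (A) libraries, a ratio of 942 (95% Clopper-Pearson counting interval 169 to 37241). Rnase2a, an eosinophil-associated ribonuclease with near-identical family members, had 2404 and 2 counts, a ratio of 1251 (346 to 10335). Retnla had 181 counts in (B) and 2 in (A), and Cd163 had 97 and 1. Il4ra, which carries the signals of IL-4 and IL-13, was not called, at 613 and 592 CPM in (B) and 563 and 560 CPM in (A).

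**Figure D5:**
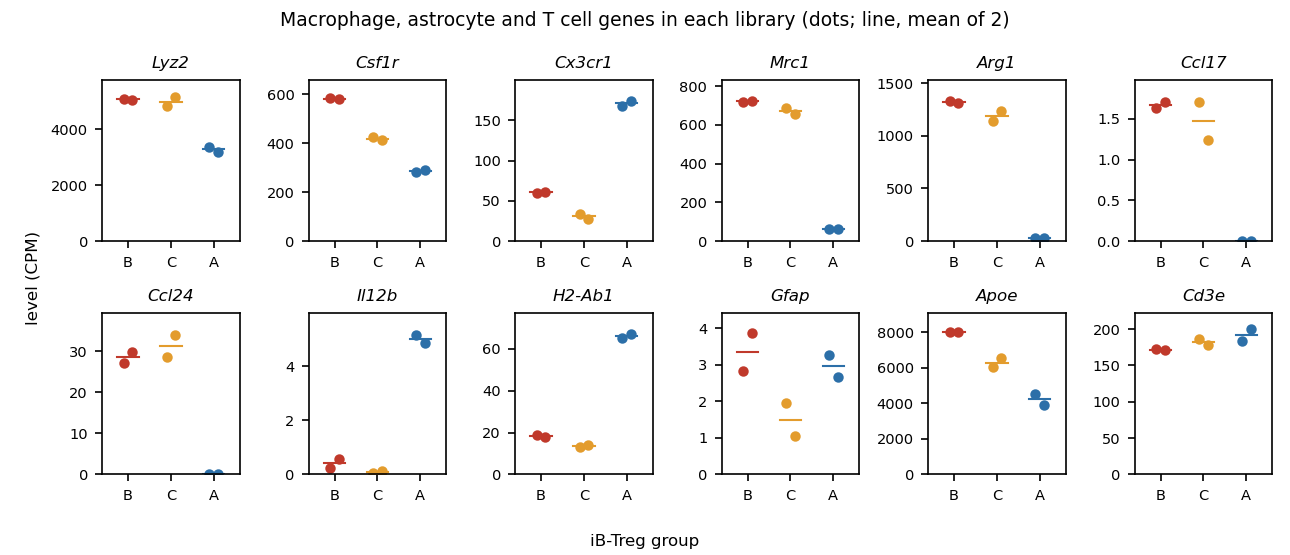
Levels of 12 genes of macrophages, astrocytes and T cells in each library, in CPM from 0, with 1 dot per library and a line at the mean of 2, in the order iB-Tregs (B), (C) and (A). Mrc1, Arg1 and Ccl24 are near 0 or low in (A), Lyz2 and Csf1r differ by less, and Cx3cr1, Il12b and H2-Ab1 are lower in (B).

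Genes of inflammatory macrophages mostly rose as well. Of 14 tested, 10 rose (71.4%) and 2 fell (14.3%), with a median of 0.92, and the share of falls was near that of all genes. The microglia and macrophage markers had a median of 0.97, and their part in this rise was not tested. Il1a (2.20), Saa3 (1.67) and Nlrp3 (0.88) were among the genes that rose. Il1b was at 217 and 224 CPM in (B) and 180 and 184 CPM in (C), against 47.6 and 43.9 CPM in (A) (log2 fold change 2.27), and its antagonist Il1rn at 92.0 and 95.7 CPM in (B), against 17.4 and 19.1 CPM in (A) (2.37). Il12b, the p40 chain of IL-12 and IL-23, fell, with 0.251 and 0.570 CPM in (B) and 0.063 and 0.131 CPM in (C), against 5.17 and 4.87 CPM in (A), a log2 change of -3.59 ± 0.37 (adjusted p = 7.2e-08). The other gene that fell was Acod1, which makes itaconate (-0.53). Tnf was not called.

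Several genes of macrophages and antigen-presenting cells fell while their markers rose. Cx3cr1, the fractalkine receptor of microglia, was at 59.7 and 61.6 CPM in iB-Tregs (B) and 33.8 and 27.4 CPM in (C), against 168 and 174 CPM in (A), a log2 change of -1.50 ± 0.07 (adjusted p = 4.6e-14). Its annotated span overlaps several other genes. The class II chain genes, which lie next to each other on chromosome 17, fell together. H2-Eb1 was at 8.53 and 8.99 CPM in (B) and 5.73 and 5.09 CPM in (C), against 51.9 and 48.7 CPM in (A) (-2.52). H2-Aa (-2.27) and H2-Ab1 (-1.86) did likewise, as did their activator Ciita (-1.42), with 0.815 and 2.34 CPM in (B) against 4.28 and 4.19 CPM in (A). In each of these genes both (B) libraries lay below both (A) libraries. Without (B) library 1 the value for Ciita was -0.85 and not called. Cd74, the invariant chain, fell by 0.26 on the log2 scale (-0.14 and not called with the pan T cell scaling), and H2-DMa and H2-DMb1 were not called. Of 14 genes of the class II pathway in all, 6 fell (42.9%) and 3 rose (21.4%), with a median of -0.19, and the genes that rose were Ctss (1.58), Cd86 (0.45) and Cd80 (0.35).

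The 2 largest falls among genes of at least 10 CPM in (A) were those of Ctsk, the collagen-cleaving protease cathepsin K, at 4.39 and 3.29 CPM in (B) and 3.34 and 4.50 CPM in (C), against 48.5 and 44.5 CPM in (A) (-3.60), and of Fscn1, an actin-bundling protein of mature dendritic cells, at 5.96 and 4.12 CPM in (B) and 3.02 and 2.74 CPM in (C), against 40.3 and 41.2 CPM in (A) (-3.01). Htra1, a secreted serine protease, was at 7.46 and 6.90 CPM in (B), against 35.4 and 35.9 CPM in (A) (-2.31). The groups were far apart in all 3. Gdnf, a growth factor of dopamine neurons, was at 5.64 and 4.88 CPM in (B) and 3.72 and 3.33 CPM in (C), against 11.5 and 12.1 CPM in (A) (-1.17). Fbln2 (-1.34) and Ltbp2 (-1.17), both of the extracellular matrix, the iron-binding protein Ltf (-1.20) and S100a4 (-1.23) fell by similar amounts.

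Chemokine ligands rose in 16 of 21 cases (76.2%) and fell in 3 (14.3%), with a median of 1.62, and the share of falls was near that of all genes. Ccl6 was at 488 and 507 CPM in (B) and 688 and 752 CPM in (C), against 20.9 and 21.5 CPM in (A) (log2 fold change 4.55). Ccl9, its close relative next to it on chromosome 11, was at 512 and 507 CPM in (B), against 74.7 and 69.5 CPM in (A) (2.82), and reads shared by the pair may blur their values. Cxcl3, a neutrophil chemokine (4.21), rose too. Ccl8 (3.92), Ccl7 (2.48), Ccl12 (2.07) and Ccl2 (1.62), which attract monocytes and form another cluster on that chromosome, rose together. Ccl17, a ligand of CCR4, had 53 counts in (B) and none in (A), at least 18.4-fold higher. The ligands that fell were Cxcl9 (-2.48), Cxcl13 (-1.79) and Cxcl10 (-0.40). Cxcl13, the B cell chemokine, was at 47.5 and 41.5 CPM in (B) and 21.3 and 20.8 CPM in (C), against 151 and 157 CPM in (A). Cxcl10 was not called with the pan T cell scaling (-0.28), without (A) library 2 (-0.35) or without (B) library 1 (-0.29). Ccl20 was not called, and Ccl1 had no count in (B), 1 and 0 counts in (C) and 2 and 1 in (A).

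Interferon-stimulated genes rose in 18 of 25 cases (72%) and fell in 1 (4%), with a median of 0.55, and none was lower with the pan T cell scaling. Oas2, an antiviral synthetase, was at 24.9 and 27.4 CPM in (B) and 20.8 and 21.4 CPM in (C), against 12.1 and 10.5 CPM in (A) (1.21). Rsad2, or viperin (1.00), Mx1 (0.97) and Irf7 (0.78) rose too. The chemokines Cxcl9 and Cxcl10, which interferon-γ induces, fell as given above.

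Of 18 complement genes, 11 rose (61.1%) and 2 fell (11.1%), with a median of 0.97. C3 was at 6029 and 5950.4 CPM in (B) and 4588 and 4477 CPM in (C), against 1130.1 and 1107 CPM in (A), a log2 change of 2.42 ± 0.04 (adjusted p = 2.1e-21). C1qa, C1qb and C1qc, made by microglia and macrophages, rose by 0.97 to 1.12, and Cfb, of the alternative pathway, fell (-1.81), as did Cd55 (-0.42), which was not called without (B) library 1 (-0.36). Itgax, the integrin chain CD11c, rose most (3.50).

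Of 15 matrix proteases and their inhibitors, 9 rose (60%) and 1 fell (6.67%), with a median of 0.55. Timp1, an inhibitor of matrix metalloproteases that reactive astrocytes also make, was at 138 and 139 CPM in (B) and 144 and 163 CPM in (C), against 0.713 and 0.987 CPM in (A), a log2 change of 7.34 ± 0.13 (adjusted p = 1.9e-21). It overlaps Syn1 on the other strand. Mmp12, the macrophage elastase, was at 132 and 130 CPM in (B), against 9.93 and 10.5 CPM in (A) (3.67). Mmp13 (3.19), Adam8 (2.18), Mmp19 (1.76) and Mmp9 (1.09) rose too, and Mmp11 fell (-0.73). Of 21 genes of reactive astrocytes, 7 rose (33.3%) and 4 fell (19%), with a median of 0.17, and the share of falls was near that of all genes. Gfap, at 2.82 and 3.86 CPM in (B) and 3.27 and 2.65 CPM in (A), was not called.

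Of 15 trophic and repair factors, 9 rose (60%) and 1 fell (6.67%), with a median of 0.30. Beside Areg, Spp1 and Penk, they include Igf1, insulin-like growth factor 1, at 89.4 and 87.7 CPM in iB-Tregs (B) and 76.4 and 74.5 CPM in (C), against 19.7 and 27.7 CPM in (A) (1.91), and Hbegf, a relative of Areg, at 25.2 and 26.2 CPM in (B) and 28.9 and 29.0 CPM in (C), against 10.5 and 12.9 CPM in (A) (1.14). Igf1 is a gene of macrophages as well. The gene of this list that fell is Gdnf.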

How the data were processed

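RNA-seq reads came from poly(A) RNA in a directional library kit. The deposited values are raw gene counts that the authors made on GRCm38 with HISAT2. The paper names featureCounts as counter, while the versions in the submitters' processing notes are 2.0.1 for HISAT2 and 0.6.1 for HTSeq. Which counter made the table and whether it used strand are not given in the sources used here. Counts of the 6 iB-Treg libraries, 15628261 to 16388161 each, were filtered (filterByExpr), scaled by TMM and fitted together in edgeR 4.0.16 (limma 3.58.1, R 4.3.3) with its quasi-likelihood test, Benjamini-Hochberg adjusted over 14713 genes at a threshold of 0.05. Symbols matched 55141 of 55401 IDs.

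Members and gene lists were chosen with earlier results of these data known. Named were the genes that the study names, the 15 largest rises and falls among protein-coding genes of at least 10 CPM in the higher group whose groups did not overlap, called list members and the receptors of the added agents. Other genes were named for their role after their values were seen. Folds against no count use a floor of 3 counts over the (A) libraries. Counting intervals cover counting error only. Alternatives were other scalings and filters, DESeq2 1.42.0, the 4 libraries of (B) and (A) alone, a replicate block and leaving out each library. The calculations were tested on simulated data. A few members of the lists are counted but not reported here by name.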

Additional observations from a re-analysis of the deposited data

How the results depend on the processing

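No gene called in both the edgeR fit and an alternative changed direction. With the pan T cell scaling 3491 genes were called higher and 972 lower, and DESeq2 called 1721 higher and 1383 lower, against 2296 and 2139 in the fit reported. Leaving out 1 library gave 1682 to 2206 genes higher and 1219 to 2128 lower, with the fewest calls without a (B) library (1707 and 1318 without the first, 1682 and 1219 without the second). The share of calls that were higher was 51.8% as reported, 37.0% with total counts and 78.2% with the pan T cell scaling. Deviations of libraries with the same replicate number correlated at 0.106 for (B) and (A), 0.0512 for (C) and (B) and -0.136 for (C) and (A). With 2 libraries a group, such correlations cannot exclude that the numbers pair libraries of a shared culture. With the replicate block 2250 genes were higher and 2041 lower. Of 199 genes named in the text and called, 165 stayed called under all 12 alternatives. The lost calls were mostly of small changes, and the cause was not tested. With 2 libraries a group, genes under about 1 CPM rest on few counts.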

Other observations

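Several genes outside the lists of T cell and macrophage pathways differed widely. Calca, which encodes calcitonin and the neuropeptide CGRP, was at 192 and 191 CPM in iB-Tregs (B) and 157 and 166 CPM in (C), against 10.3 and 8.70 CPM in (A), a log2 change of 4.33 ± 0.08 (adjusted p = 2.1e-21). It is among the markers of group 2 innate lymphoid cells counted above. Trf, the iron carrier transferrin, was at 2294 and 2271 CPM in (B), against 165 and 165 CPM in (A) (3.79). Fn1, the matrix protein fibronectin, was at 5841 and 5770.0 CPM in (B), against 391 and 403 CPM in (A) (3.87), and Vwf, a gene of endothelium and platelets, at 15.2 and 15.8 CPM in (B), against 1.13 and 0.802 CPM in (A) (3.99). The marker lists of such cells moved both ways, and the source of these rises was not tested. Of 6 fibroblast and meningeal markers tested, Fn1 included, 1 rose (16.7%) and 2 fell (33.3%), with a median of -0.48. Of 5 endothelial and pericyte markers, Vwf included, 2 rose (40%) and 2 fell (40%), with a median of -0.17. Ky, known from muscle, was at 14.0 and 14.0 CPM in (B), against 0.178 and 0.0617 CPM in (A) (6.76).

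In all, 8 tested genes had no count in either (A) library, and no tested gene was without a count in (B). Such genes could pass the filter only through the libraries of (B) and (C). That all 8 were called higher in (B) was thus nearly fixed in advance. The same holds for genes with few counts in (A), such as Ccl24, Csn1s1, Il5 and Il13. Beside Chil3 and Ccl17 the 8 genes include Dscaml1, a cell adhesion gene of neurons, with 48 counts in (B), at least 16.7-fold higher, Hamp, the gene of the iron hormone hepcidin, with 29 counts, at least 10.1-fold higher, and Ear2, at least 10.4-fold higher.

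Among 281 long intergenic noncoding RNAs tested, 35 were higher in (B) (12.5%) and 11 lower (3.91%), against 15.6% and 14.5% of all genes tested. Malat1 was at 1614 and 1744 CPM in (B) and 1696 and 1608 CPM in (C), against 958 and 1059 CPM in (A) (0.73), and Neat1, the scaffold of paraspeckles, at 547 and 560 CPM in (B), against 294 and 301 CPM in (A) (0.90). Both nuclear RNAs lay above (A) in all 4 libraries with IL-33 and serotonin.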
